A study of Homo sapiens with 6 samples.

Results

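The subject here is the machinery that displays peptides on MHC class I molecules, followed through 9 gene symbols in MCF10CA1a cells, a malignant line of the MCF10A human breast epithelial lineage. The genes were taken from a fixed list of symbols and looked up in the raw counts. They encode the heavy chains HLA-B, HLA-C, HLA-E and HLA-F, the light chain B2M, the peptide transporter subunits TAP1 and TAP2, the loading factor TAPBP and the regulator NLRC5. All 9 were among the 26484 symbols counted, and 8 of them were among the 11517 genes with enough reads to test. The group on stiff gels was grown at 8000 Pa and the group on soft gels at 500 Pa, with 3 biological replicates of each. Both groups were the same single line, plated on dishes coated with growth factor-reduced Matrigel at 0.14 mg/ml in medium with horse serum, refreshed on day 4 and harvested on day 5. The RNA is labelled cytosolic. The comparison asks how transcripts differ between cells on a stiff and on a soft matrix.

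Class I molecules are made by nearly all nucleated cells. A polymorphic heavy chain pairs with the invariant light chain β2-microglobulin, encoded by B2M, and carries a short peptide to the cell surface, where cytotoxic T cells and natural killer cells read it. The peptides come from the proteasome, are pumped into the endoplasmic reticulum by the TAP1-TAP2 transporter and are loaded with the help of tapasin, the product of TAPBP. Interferons and NF-kappaB raise transcription of these genes, and NLRC5 acts at the promoters of class I genes as a transactivator. Loss of class I display is a known route by which breast and other carcinomas escape T cells.

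The promoters of the genes that the values turn on are shown because the heavy chain genes carry a similar stretch upstream, which differs from that of the light chain. Each line gives the 200 bases before the RefSeq transcription start (GRCh38.p14), with matches to the kappaB consensus and to the interferon regulatory factor core AANNGAAA, on either strand, in capitals.
HLA-B: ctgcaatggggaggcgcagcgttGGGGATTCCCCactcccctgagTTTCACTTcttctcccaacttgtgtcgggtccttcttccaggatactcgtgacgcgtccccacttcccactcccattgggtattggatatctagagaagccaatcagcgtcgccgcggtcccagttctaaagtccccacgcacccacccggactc
HLA-C: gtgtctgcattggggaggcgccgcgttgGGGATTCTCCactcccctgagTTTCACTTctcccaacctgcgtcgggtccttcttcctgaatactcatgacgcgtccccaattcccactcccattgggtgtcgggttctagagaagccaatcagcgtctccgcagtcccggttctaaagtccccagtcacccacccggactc
B2M: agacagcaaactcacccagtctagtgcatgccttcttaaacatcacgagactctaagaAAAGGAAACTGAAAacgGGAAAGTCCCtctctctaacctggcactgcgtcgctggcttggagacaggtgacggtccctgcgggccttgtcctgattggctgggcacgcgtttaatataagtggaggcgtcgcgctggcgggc
TAP1: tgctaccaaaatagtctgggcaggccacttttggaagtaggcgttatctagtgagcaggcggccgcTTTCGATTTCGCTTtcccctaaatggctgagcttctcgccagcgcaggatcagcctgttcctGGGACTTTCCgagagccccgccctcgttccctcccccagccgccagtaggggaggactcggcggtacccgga
The windows lie at chr6:31357180-31357379 for HLA-B, chr6:31272093-31272292 for HLA-C and chr6:32853705-32853904 for TAP1, all on the minus strand, and at chr15:44711317-44711516 on the plus strand for B2M. In HLA-B, 2 overlapping kappaB matches start 177 and 176 bases before the start, and 1 interferon core follows. HLA-C has 1 match of each kind at nearly the same distances. In B2M the order is turned round, with 2 overlapping interferon cores upstream of a kappaB match. TAP1, whose promoter region also serves the neighbouring immunoproteasome gene PSMB9 in the opposite direction, has 2 overlapping interferon cores and 1 kappaB match.

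A window of 250 bases was present for 7 of the 9 genes, all but HLA-E and NLRC5. The interferon core was found in 7 of the 7, against 20.3% of all 35116 windows of that length. The kappaB consensus was found in 5 of them, against 9.96% of all windows, and was absent as a match in HLA-F and TAP2. The CCAAT box, searched as CCAAT, was found in 5, against 32.0%. The core of the cAMP response element, searched as TGACG, was found in 4, against 21.2%. TAP1 has a second RefSeq start, and only the window of the first was counted. These matches describe letters only.

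Library totals ran from 8305601 to 18779742 counts, so that 3 counts equal 0.168 to 0.429 CPM, the count relative to the library total scaled by TMM, a factor that aligns the bulk of genes between libraries. Of the epithelial markers 7 of 7 had enough reads to test, and the keratin gene KRT8 averaged 9061 CPM at 8000 Pa and 11249 CPM at 500 Pa. The leukocyte genes PTPRC and CD3E were at 0 counts in all libraries. CD68, CD14 and LYZ had enough reads to test and averaged 20.7, 11.3 and 3.79 CPM over all libraries. The summed level of 8 leukocyte markers was 26.6 to 47.3 CPM at 8000 Pa and 24.6 to 50.9 CPM at 500 Pa. For 6 endothelial markers it was 213 to 258 CPM at 8000 Pa and 100.2 to 156 CPM at 500 Pa, most of it PECAM1, with TEK at 0 and VWF at 7 counts in all. Of these, 2 were higher at 8000 Pa in edgeR with the replicate number as a block and did not pass without it (adjusted p = 0.9999 each). With the block 0.26% of all tested genes passed as higher at 8000 Pa. PECAM1, an adhesion molecule gene, averaged 219 CPM at 8000 Pa and 111 CPM at 500 Pa, with a blocked log2 fold change of 1.01 (SE 0.23, adjusted p = 0.00537). CDH5, the VE-cadherin gene, averaged 10.4 CPM at 8000 Pa and 2.58 CPM at 500 Pa, with a blocked log2 fold change of 1.99 (SE 0.39, adjusted p = 0.000314). For 7 fibroblast markers the summed level was 1.79 to 4.65 CPM at 8000 Pa and 1.23 to 1.86 CPM at 500 Pa, with COL1A2, COL3A1 and LUM at 0. COL1A1 had 98 counts in all and was the only fibroblast marker with enough reads to test. The part of these markers in the results below was not tested. In bulk RNA, fewer cells of a kind and less RNA per cell cannot be told apart.

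Of the 9 genes, 7 lie in the major histocompatibility complex on chromosome 6, and counts across that stretch were low. Between HLA-F and TAPBP (chr6:29722775-33314387, GRCh38, GENCODE 29), 20% of 140 protein-coding genes had enough reads to test, against 58.5% of 846 on the rest of the chromosome. Only 5 of the 140 (3.57%) averaged 10 CPM or more, against 287 (33.9%) elsewhere on chromosome 6. Broadly expressed genes of the stretch were chosen after their values were seen, and not all were low. The tubulin gene TUBB averaged 76.6 CPM (64.7 to 86.9 CPM), TRIM26 8.51 CPM and PPP1R11 7.80 CPM. Others were lower for genes of their kind or hardly counted. The ribosomal protein gene RPS18 averaged 9.18 CPM, while the median of 78 other ribosomal protein genes was 757 CPM and 5 of them were lower. BAG6, a chaperone gene, averaged 1.41 CPM, and DDX39B, an RNA helicase gene, had 1 count in 6 libraries. How reads that fit several places in the genome were counted is not given in the sources used here, and its part in these levels was not tested. Low values of HLA-E, HLA-F, TAP1, TAP2 and TAPBP are therefore uncertain as levels. HLA-B and HLA-C lie in the same stretch, so their levels are uncertain as well. B2M on chromosome 15 and NLRC5 on chromosome 16 lie outside the stretch.

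**Figure D1:**
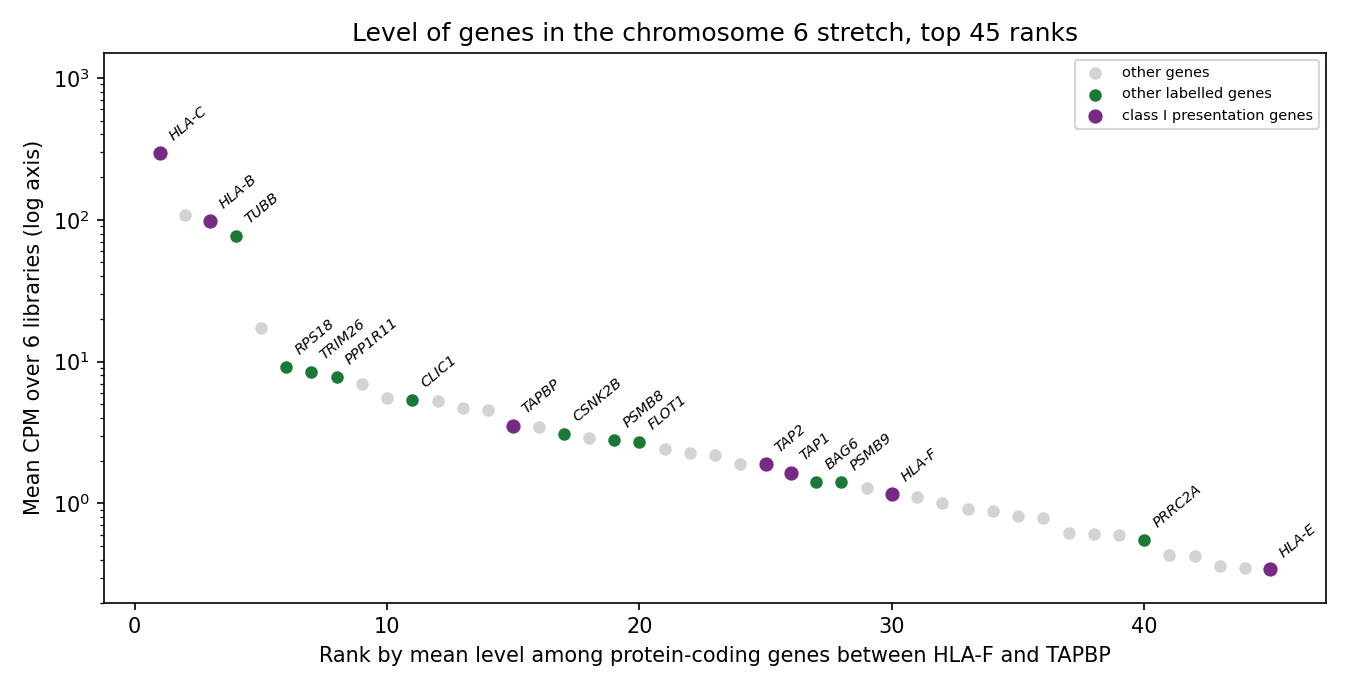
Mean CPM over 6 libraries (log axis) of the 45 highest protein-coding genes of the chromosome 6 stretch between HLA-F and TAPBP, in order of level, with class I presentation genes in purple and other labelled genes in green. HLA-C at 296 CPM and HLA-B at 97.9 CPM stand well above TAPBP at 3.50 CPM and the other presentation genes of the stretch.

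Of the 4 heavy chain genes followed here HLA-C and HLA-B had substantial counts, and both were lower on stiff than on soft gels within each replicate number, without passing the test. HLA-B, a classical heavy chain whose peptide groove presents to CD8 T cells, had 39.9, 60.1 and 111 CPM at 8000 Pa in replicates 1, 2 and 3. At 500 Pa it had 69.3, 91.7 and 215 CPM. The order of the replicate numbers was the same at both stiffnesses, replicate 3 being highest and replicate 1 lowest, and the groups overlapped. The means were 70.5 ± 36.9 CPM at 8000 Pa and 125 ± 78.6 CPM at 500 Pa (SD, n = 3 each). The log2 fold change of 8000 Pa over 500 Pa was -0.83 (SE 0.44), with an adjusted p of 0.9999 in edgeR's quasi-likelihood test with Benjamini-Hochberg adjustment over all tested genes.

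HLA-C, also a classical heavy chain and a ligand of killer cell immunoglobulin-like receptors on natural killer cells, followed the same course. It had 136, 237 and 319 CPM at 8000 Pa, against 219, 312 and 554 CPM at 500 Pa. Replicate 3 was again highest and replicate 1 lowest at each stiffness, and the ranges overlapped. The means were 230.4 ± 91.9 CPM at 8000 Pa and 362 ± 173 CPM at 500 Pa (SD, n = 3 each), a log2 fold change of -0.65 (SE 0.37, adjusted p = 0.9999 by edgeR). With the replicate number as a block, which takes out the level that a number shares between stiffnesses, the fold change of HLA-B was -0.79 (SE 0.23, adjusted p = 0.0862 by edgeR) and that of HLA-C was -0.63 (SE 0.23, adjusted p = 0.240 by edgeR). Neither passed at an FDR of 0.05. The SEs and p-values of this blocked edgeR fit rest on a variance shared across genes and do not measure each gene's own spread.

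**Figure D2:**
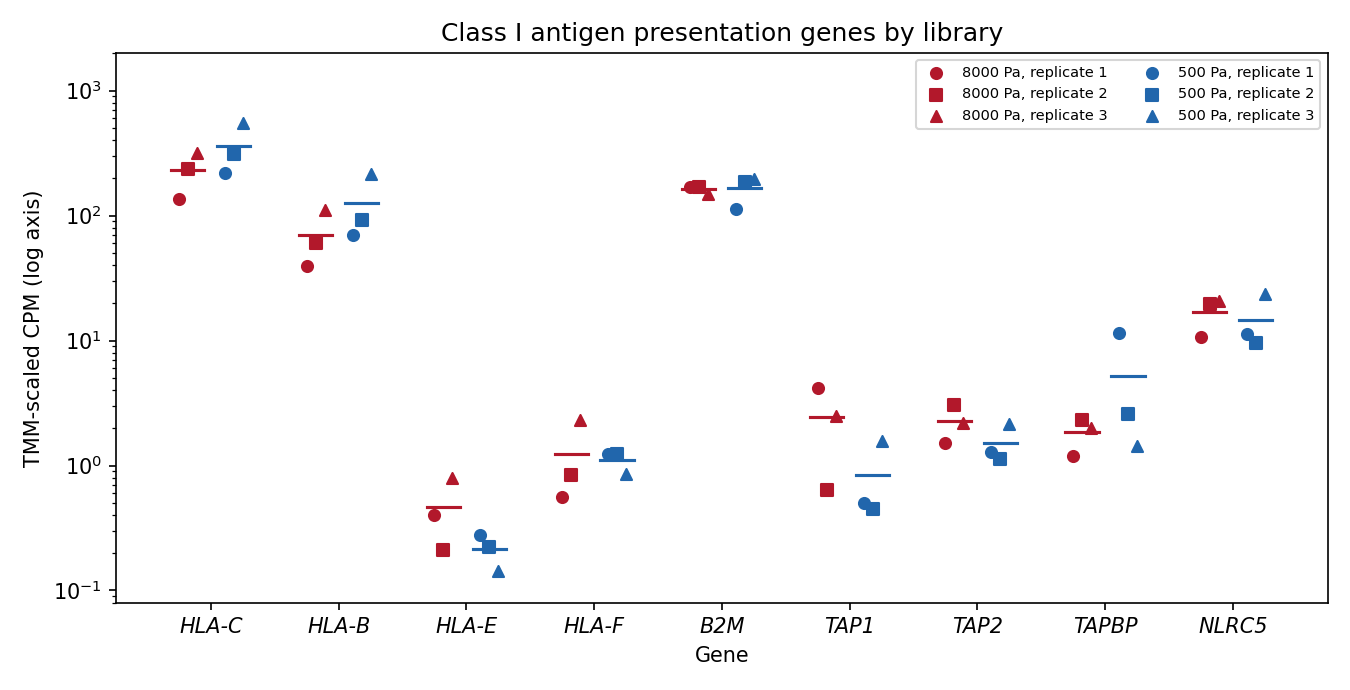
TMM-scaled CPM (log axis) of the 9 genes in each library, 8000 Pa in red on the left and 500 Pa in blue on the right of each gene, with a symbol for each replicate number and a bar at the group mean. HLA-C runs from 136 to 554 CPM and HLA-B from 39.9 to 215 CPM, and the groups of each gene overlap.

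Within replicate numbers 1, 2 and 3 the log2 ratio of 8000 Pa over 500 Pa was -0.80, -0.61 and -0.95 for HLA-B. For HLA-C it was -0.70, -0.40 and -0.80. Of the 8 tested genes these 2 were lower at 8000 Pa in all 3 numbers, where 15.2% of all tested genes were. In the authors' deposited log2 values the differences within numbers were -0.67, -0.60 and -0.99 for HLA-B and -0.57, -0.39 and -0.84 for HLA-C. The size of the unpaired difference rested on the 500 Pa library of replicate 3, the highest for both genes. Without it the log2 fold change was -0.14 for HLA-B and -0.16 for HLA-C. Without the 8000 Pa library of replicate 3 it was -1.33 for HLA-B, and without that of replicate 1 it was -0.54 for HLA-B and -0.38 for HLA-C. With both libraries of replicate 3 left out, the blocked fit gave -0.65 for HLA-B and -0.50 for HLA-C. Together the pair took 0.0212%, 0.0310% and 0.0402% of all counts at 8000 Pa, against 0.0275%, 0.0424% and 0.0648% at 500 Pa.

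The 2 heavy chains moved almost in step from library to library. On the log2 scale, each gene centred on its own mean, HLA-B and HLA-C differed by a root mean square of 0.20 over the 6 libraries, the smallest value among the 28 pairs of tested genes. The next smallest was 0.26, between TAP2 and NLRC5, and HLA-B and B2M differed by 0.72. HLA-F, TAP1, TAP2 and TAPBP had few counts, 4 to 52 per library in TAP1 against 499 to 1506 in HLA-B. Counting error therefore adds to the values of their pairs. HLA-B and HLA-C also have similar GC contents, 59.5% and 61.4%, whose part in this likeness was not tested. Per kilobase of transcript, the level of HLA-C was 3.43, 3.96 and 2.88 times that of HLA-B at 8000 Pa, and 3.19, 3.43 and 2.59 times at 500 Pa. The transcripts of the pair are 92.6% identical over aligned bases in GENCODE 29, yet only 2.0% of the 50-base windows of the HLA-B transcript occur unchanged in that of HLA-C. The annotated span of HLA-B (chr6:31269491-31357188) also overlaps that of HLA-C (chr6:31268749-31272130) on the same strand, so the split of reads between the 2 genes is uncertain.

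Both heavy chains are rich in G and C, and the libraries differed in how counts followed GC content. HLA-B transcripts have a GC content of 59.5% and HLA-C transcripts 61.4%, against a median of 49.6% over the tested genes. A smooth trend of level on GC, fitted per library, placed genes with the GC content of HLA-C at -0.70 on the log2 scale in the 8000 Pa library of replicate 1. In the 500 Pa library of replicate 3 it placed them at 0.44, and these are the libraries in which HLA-C was lowest and highest. With the trend taken out, the ratios within numbers 1, 2 and 3 were -0.20, -0.64 and -0.83 for HLA-B. For HLA-C they were -0.00023, -0.41 and -0.65, so that replicate 1 no longer showed a difference for HLA-C. Both genes were still below 0 in all 3 numbers, where 16.9% of all tested genes were. In the fit with a GC offset the fold changes were -0.62 (SE 0.29) for HLA-B and -0.39 (SE 0.22) for HLA-C, and with the offset and the replicate block together -0.56 (SE 0.17, adjusted p = 0.0833 by edgeR) and -0.35 (SE 0.17, adjusted p = 0.371 by edgeR).

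**Figure D3:**
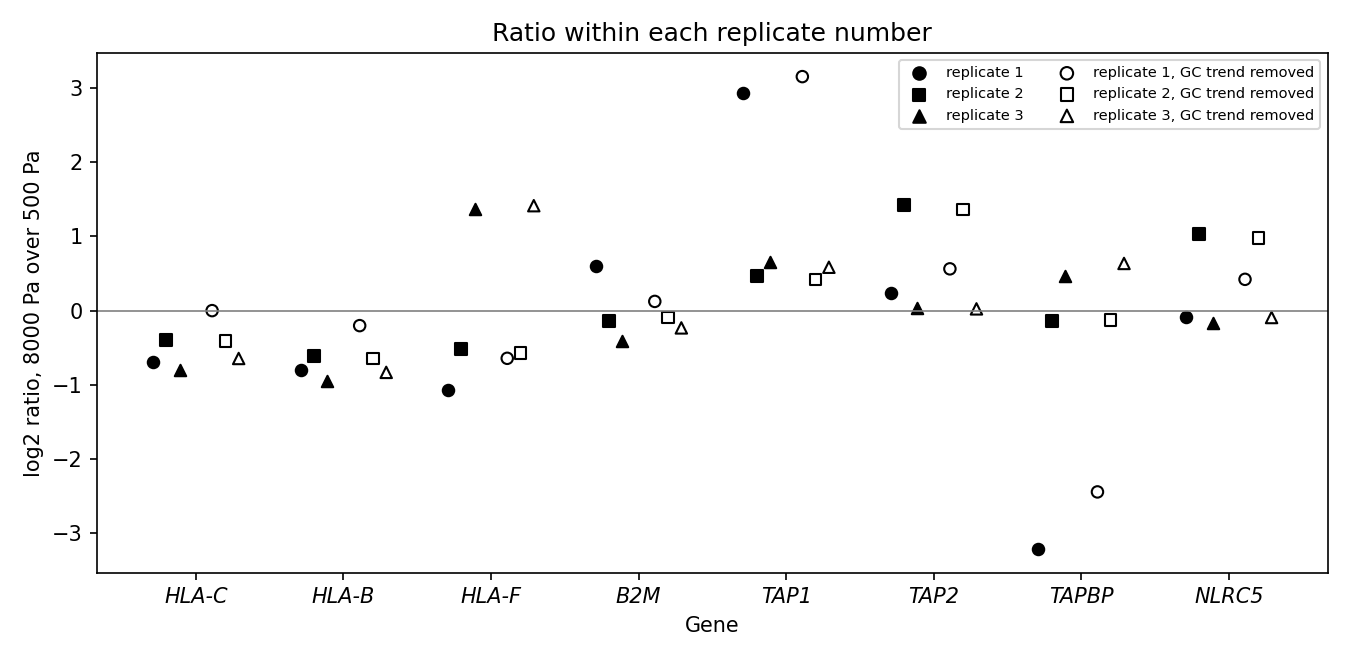
Log2 ratio of 8000 Pa over 500 Pa within each replicate number for the 8 tested genes, as scaled by TMM (filled) and after the per-library GC trend was taken out (open). All filled symbols of HLA-C and HLA-B lie below 0, from -0.95 to -0.40, while those of B2M lie on both sides.

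B2M, the light chain shared by all class I molecules, had ratios on both sides of 0. It had 169, 169 and 149 CPM at 8000 Pa, against 112, 186 and 197 CPM at 500 Pa. The 500 Pa library of replicate 1 was lowest and those of replicates 2 and 3 highest, with the stiff libraries between them. The means were 162 ± 11.6 CPM at 8000 Pa and 165 ± 46.2 CPM at 500 Pa (SD, n = 3 each), and the log2 fold change was -0.022 (SE 0.27). The ratios within replicate numbers were 0.60, -0.14 and -0.40, and after the GC trend was taken out 0.12, -0.093 and -0.23. B2M transcripts have a GC content of 40.5%, and the trend ran the other way for them, at 0.59 in the 8000 Pa library of replicate 1.

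Set against the light chain, and with no allowance for GC content, the classical heavy chains were lower on stiff gels in each replicate number. Per kilobase, HLA-C stood at 0.888, 1.56 and 2.38 times B2M at 8000 Pa, and at 2.17, 1.86 and 3.12 times at 500 Pa. HLA-B stood at 0.259, 0.393 and 0.824 times B2M at 8000 Pa, and at 0.682, 0.544 and 1.20 times at 500 Pa. The groups overlapped in both ratios, and GC content differs between numerator and denominator. In replicate 1 the GC trend at 8000 Pa less that at 500 Pa was -0.69 for HLA-C, -0.60 for HLA-B and 0.47 for B2M. With the trend taken out, the log2 ratio in replicate 1 was -0.00023 for HLA-C, -0.20 for HLA-B and 0.12 for B2M. The share of all tested genes lower against B2M in each number was not worked out. The heavy chains lie in the low stretch of chromosome 6 and B2M outside it, so the size of these ratios is uncertain.

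The nonclassical heavy chains were close to the limit of counting. HLA-E, which presents leader peptides of other class I chains to the NKG2A receptor of natural killer cells, had 5, 2 and 8 counts at 8000 Pa and 5, 2 and 1 counts at 500 Pa, too few to test. HLA-F, a nonclassical chain that also reaches the surface without peptide, had 7, 8 and 23 counts at 8000 Pa and 22, 11 and 6 counts at 500 Pa. Its level was 0.559, 0.845 and 2.29 CPM at 8000 Pa and 1.23, 1.23 and 0.857 CPM at 500 Pa. The log2 fold change was 0.12 (SE 0.62), and it was -0.66 without the 8000 Pa library of replicate 3. HLA-F-AS1 is annotated on the opposite strand over part of HLA-F, and whether strand was used in counting is not given, so their reads cannot be told apart.

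The transporter and loading genes had few counts and uneven ones. TAP1, a subunit of the peptide pump, had 52, 6 and 25 counts at 8000 Pa and 9, 4 and 11 counts at 500 Pa, or 4.15, 0.634 and 2.49 CPM against 0.503, 0.447 and 1.57 CPM. The 8000 Pa library of replicate 1 was highest, and the groups overlapped. The log2 fold change was 1.63 (SE 0.72, adjusted p = 0.9999 by edgeR) and 1.56 (SE 0.63, adjusted p = 0.308 by edgeR) with the replicate block. It was 0.99 without the 8000 Pa library of replicate 1 and 2.40 without the 500 Pa library of replicate 3. Reads of TAP1 may also belong to PSMB9 or PSMB8-AS1, which overlap it on the opposite strand.

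TAP2, the partner subunit, had 1.52, 3.06 and 2.19 CPM at 8000 Pa and 1.29, 1.12 and 2.14 CPM at 500 Pa. The groups overlapped, and the log2 fold change was 0.59 (SE 0.52). It was 0.31 without the 8000 Pa library of replicate 2, 0.93 without the 500 Pa library of replicate 3 and 0.14 in the blocked fit without replicate 2. TAP1 and TAP2 were higher at 8000 Pa in all 3 replicate numbers, with ratios of 2.94, 0.46 and 0.65 for TAP1 and 0.23, 1.42 and 0.032 for TAP2, where 14.6% of all tested genes were. For TAP2 this depended on the scaling, since with DESeq2 size factors its ratio in replicate 3 was -0.053.

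TAPBP, whose product tapasin bridges the transporter and the empty heavy chain, had 15, 22 and 20 counts at 8000 Pa, against 206, 23 and 10 counts at 500 Pa. A single library, replicate 1 at 500 Pa, held most of the reads, with 11.5 CPM against 1.20 to 2.57 CPM in the others. The log2 fold change was -1.54 (SE 0.68, adjusted p = 0.9999 by edgeR), and without that library it was -0.12. Other genes of the stretch also had 1 library far above the rest. Of 27 genes of the stretch that averaged 1 to 10 CPM, 4 (14.8%) had a highest library over 3 times the next, namely CLIC1, HLA-DMA, PSMB9 and TAPBP, against 1 of 211 (0.474%) on the rest of the chromosome. TAPBP itself is among the 4, so the count is not independent of the case that it follows. The difference between these shares was not tested.

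NLRC5, the class I transactivator, was counted well above the floor in all libraries and did not differ in one direction. It had 10.6, 19.4 and 20.8 CPM at 8000 Pa, against 11.2, 9.50 and 23.4 CPM at 500 Pa. The lowest value was that of replicate 2 on soft gels and the highest that of replicate 3 on soft gels, so the stiff libraries lay within the range of the soft ones. The means were 17.0 ± 5.54 CPM at 8000 Pa and 14.7 ± 7.60 CPM at 500 Pa (SD, n = 3 each), with a log2 fold change of 0.21 (SE 0.41). The ratios within numbers were -0.080, 1.03 and -0.17. Without the 500 Pa library of replicate 2 the fold change was -0.024.

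Per kilobase of transcript and averaged over the 6 libraries, levels ran from HLA-C at 193 CPM per kb through B2M at 96.0 and HLA-B at 63.3 to NLRC5 at 2.32, TAPBP at 1.86, TAP2 at 0.756, HLA-F at 0.715, TAP1 at 0.552 and HLA-E at 0.132 CPM per kb. The libraries ranged from 88.2 to 361 CPM per kb for HLA-C, from 65.7 to 116 for B2M and from 25.8 to 139 for HLA-B, so these neighbours were not separated by their spread. NLRC5 at 1.39 to 3.44 CPM per kb was separated from HLA-B but not from TAPBP at 0.635 to 6.10 CPM per kb. All but B2M and NLRC5 lie in the low stretch of chromosome 6, so this order is uncertain.

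Across the list, 0 of the 8 tested genes passed in the unpaired edgeR fit, where 0.0% of all tested genes passed. At an unadjusted p under 0.05 there were 2, TAP1 and TAPBP, against 2.45% of all tested genes. DESeq2 and limma-voom also called 0 of the 8. In the fit with the replicate block 0 passed, against 0.53% of all tested genes, and 4 had an unadjusted p under 0.05 (HLA-B, HLA-C, TAP1 and TAPBP), against 10.6%. In the unpaired fit 4 had a fold change below 0, where 48.8% of all tested genes did, and 4 above, with a median of 0.050 against 0.0093 for all tested genes. With the block 4 were below 0, where 50.6% of all tested genes were. Higher in all 3 numbers after the GC trend was taken out were 2 (TAP1 and TAP2), against 15.4%. For 0 of the 9 genes were the groups free of overlap, where 6.87% of all tested genes did not overlap.

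The other steps of the pathway were followed through 7 companion lists with 57 tested genes, of which 0 passed in edgeR in either fit, and 0 in DESeq2 and limma-voom. Of all tested genes 0.0% passed in the unpaired edgeR fit and 0.53% with the replicate block. At an unadjusted p under 0.05 there was 1 companion gene unpaired, against 2.45% of all tested genes. With the replicate block there were 9 of the 57, against 10.6%. Of 11 tested genes that supply or trim peptides, none passed (0 higher, 0 lower), with a median log2 fold change of -0.13. PSME1, a subunit of the interferon-inducible proteasome activator, had 483 ± 147 CPM at 8000 Pa and 695 ± 261 CPM at 500 Pa (SD, n = 3 each). PSMB6, a constitutive catalytic subunit, had 501 ± 142 CPM at 8000 Pa and 609 ± 158 CPM at 500 Pa. Of the immunoproteasome subunits, PSMB10 on chromosome 16 averaged 122 CPM over all libraries, while PSMB8 at 2.79 and PSMB9 at 1.41 CPM lie in the low stretch of chromosome 6. These subunits were chosen after their values were seen.

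Chaperones and glycan enzymes of peptide loading, 6 tested, had a median of 0.35 and 0 passed. CALR, the calreticulin gene, had 1101 ± 311 CPM at 8000 Pa and 1016 ± 240.4 CPM at 500 Pa. CANX, the calnexin gene, had 809 ± 410 CPM at 8000 Pa and 538 ± 195 CPM at 500 Pa. Among 15 tested factors that act at class I promoters, RELA, the NF-kappaB subunit, had 90.9 ± 34.7 CPM at 8000 Pa and 126 ± 24.0 CPM at 500 Pa. The list median was 0.076 and 0 passed.

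Of 9 tested interferon receptor and signal genes 0 passed, with a median of 0.19. IRF9, an interferon regulatory factor, had 152 ± 54.1 CPM at 8000 Pa and 193 ± 127 CPM at 500 Pa, and the kinase gene TYK2 had 91.3 ± 28.6 CPM at 8000 Pa and 98.1 ± 5.30 CPM at 500 Pa. Of 5 tested genes tied to class I turnover 0 passed, with a median of -0.020. The ubiquitin ligase gene WWP2 had 89.7 ± 24.4 CPM at 8000 Pa and 90.9 ± 11.8 CPM at 500 Pa, and IRGQ, tied to autophagy of class I chains, had 45.9 ± 4.22 CPM at 8000 Pa and 36.8 ± 11.3 CPM at 500 Pa.

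Class I-like genes and ligands of the NKG2D receptor, 10 tested, had a median of -0.097 and 0 passed. AZGP1, a secreted zinc-binding glycoprotein with a class I-like fold, was the most abundant of these at 490.5 ± 149 CPM at 8000 Pa and 633 ± 156 CPM at 500 Pa. MR1, which presents microbial vitamin B metabolites, had 32.4 ± 3.61 CPM at 8000 Pa and 33.4 ± 3.59 CPM at 500 Pa. MHC class II genes were nearly uncounted. Of 12, 7 had 0 counts in all libraries, the class II transactivator CIITA had 2 counts in all and CD74, the invariant chain, had 24. The 7 at 0 are HLA genes of chromosome 6, which holds the low stretch, so their values are uncertain as levels. CIITA on chromosome 16 and CD74 on chromosome 5 lie outside it. HLA-DMA was named above among the genes of the stretch with 1 library far above the rest. HLA-DMA, the 1 tested, had 3.00 ± 3.54 CPM at 8000 Pa and 1.41 ± 0.610 CPM at 500 Pa, and its highest library, replicate 3 at 8000 Pa, had 7.08 CPM.

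Genes whose profile over the 6 libraries was nearest to the mean of the 8 tested genes, among those with at least 5 CPM, included P2RX4, CTSH, ANGEL1 and SUOX. Their root mean square difference from it was 0.047 to 0.060 on the log2 scale. HLA-B differed from that mean by 0.55 and HLA-C by 0.43. The named genes were picked for being nearest to the mean, so no comparison is drawn between them and the heavy chains.

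**Figure D4:**
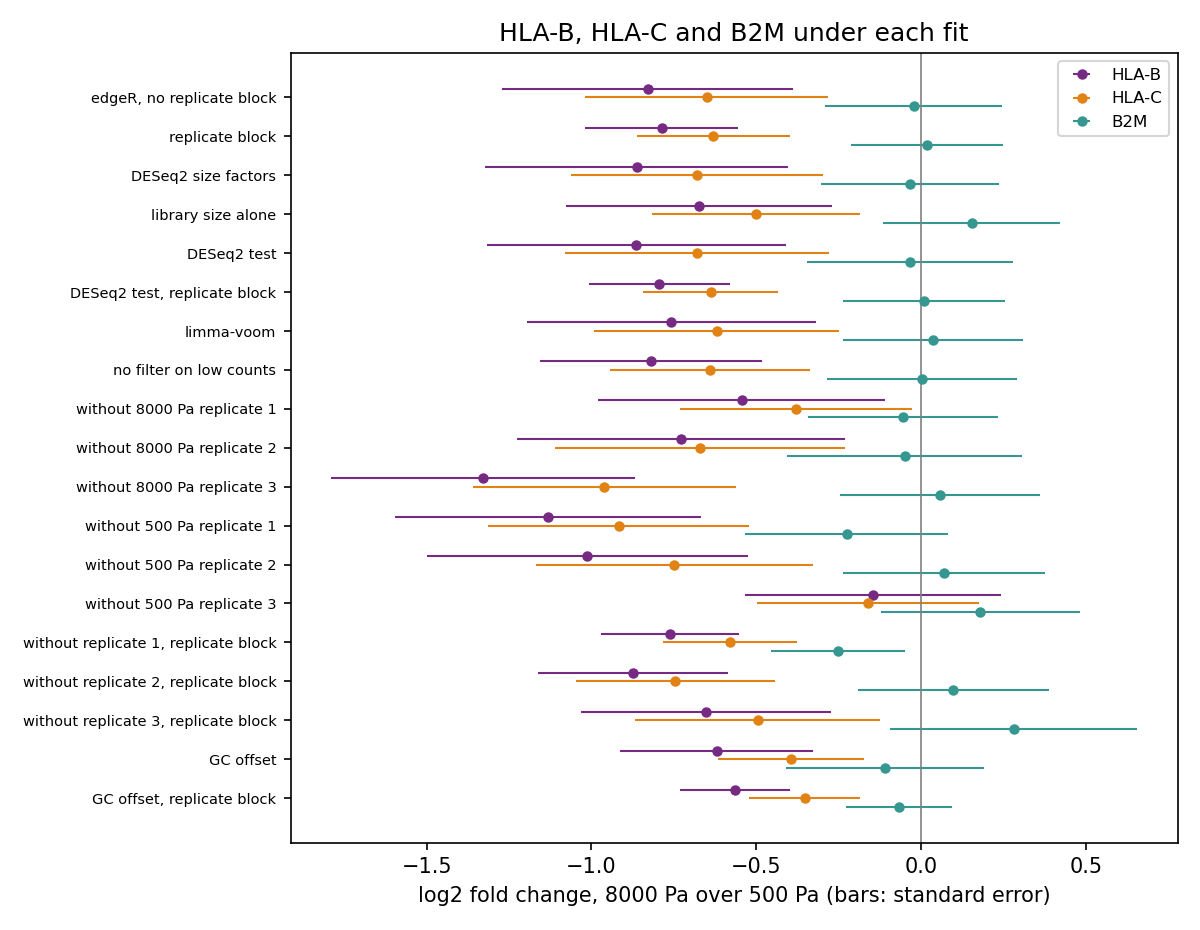
Log2 fold change of 8000 Pa over 500 Pa with its standard error for HLA-B, HLA-C and B2M under each fit. HLA-B and HLA-C stay below 0 in all 19 fits, from -1.33 to -0.14 for HLA-B and from -0.96 to -0.16 for HLA-C, while B2M runs from -0.25 to 0.28. All fits reuse the same 6 libraries and are not independent.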

How the data were processed

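RNA sequencing libraries of MCF10CA1a cells form groups by labelled stiffness, 3 at 8000 Pa and 3 at 500 Pa. The authors deposited raw counts per gene symbol, and the submitters' processing notes name HISAT2 2.1.2, HTSeq 0.11.4, limma, DESeq2 and GRCh38. Nothing read here states the annotation release, the strand setting or how multiply placed reads were handled. The second deposited column holds TMM-scaled log2 values, per the file headers, for 8593 genes, 5 of the 9 studied among them.

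Counts were tested with edgeR 4.0.16 (R 4.3.3) by its quasi-likelihood F test after filterByExpr (minimum count 10, minimum total 15) and TMM scaling, with Benjamini-Hochberg adjustment at an FDR of 0.05 over 11517 genes. SEs come from the F statistic. The prior degrees of freedom, which weigh a variance shared across genes against the gene's own, were 9.02 in the unpaired fit. With the replicate block they were infinite, so SEs and p-values of that fit do not measure each gene's own spread. Log2 ratios within a replicate number used a prior count of 0.5. The floor of 3 counts covers counting error only. The replicate numbers were taken to pair the libraries, since deviations from the group means correlated across genes at 0.391, 0.171 and 0.483 for numbers 1, 2 and 3. An unmatched pair, 8000 Pa replicate 1 with 500 Pa replicate 2, stood at 0.187, above the matched value of number 2. No label states that a number marks a shared day, and the pairing rests on the numbering with this correlation.

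Alternatives used the replicate block, DESeq2 1.42.0 and its size factors, limma-voom (limma 3.58.1), library size alone, no filter, libraries left out and a GC offset from a spline with 4 degrees of freedom on transcript GC content (GENCODE 29, found for 95.5% of tested genes). Lengths are those of the principal transcript, aligned with Biopython 1.88. Promoter windows are from RefSeq. The steps were run on simulated data, and the outcome is not reported here. Changes were set only in genes of higher level than HLA-F, TAP1, TAP2 and TAPBP, so that run does not cover these 4 genes. The genes and lists were chosen with earlier results of these data known. All 9 genes were named throughout. From each companion list the rule named up to 3 passing genes or, with none, the 2 of highest mean CPM. The rule also took the 5 other genes nearest in profile. Some genes these rules chose are not reported here.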

Additional observations from a re-analysis of the deposited data

How the results depend on the processing

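No gene of the 8 tested passed under any of the 18 alternatives (0 called in each), in which the smallest adjusted p was 0.0571 for HLA-B, in DESeq2 with the replicate block. HLA-B and HLA-C stayed below 0 and TAP1 and TAP2 above 0 in all fits that gave a value. The fits reuse the same 6 libraries, so their shared sign is not independent support. The share of all tested genes that kept 1 sign over the fits was not worked out. TAP1 was not tested without replicate 3 in the blocked fit. Over all genes, where the unpaired edgeR fit called 0, the replicate block called 61, DESeq2 7, DESeq2 with the block 42, edgeR without the filter on low counts 8 and the GC offset with the block 127. Leaving out single libraries gave 0 to 1, and leaving out a replicate number with the block 12 to 81 (38 without replicate 1). The median of the 8 genes was -0.31 to 0.21 with single libraries left out and -0.50 to 0.29 with a number left out in the blocked fit. Companion genes were called 0 to 1 times there (UGGT1, without replicate 2). Genes with 1 sign in all 3 replicate numbers were 4, and 3 with DESeq2 size factors (not TAP2). Fold changes near 0 changed sign. B2M, at -0.022, was 0.017 with the replicate block, 0.15 with library size alone, 0.0099 in DESeq2 with the block, 0.035 in limma-voom and 0.0035 without the filter. HLA-F, at 0.12, was -0.090 with the block, -0.11 in DESeq2 with the block and -0.14 in limma-voom. With single libraries left out, B2M ran from -0.23 to 0.18, HLA-F from -0.66 to 0.48, NLRC5 from -0.024 to 0.75 and TAPBP from -1.92 to -0.12. With a number left out in the blocked fit, B2M ran from -0.25 to 0.28 (0.099 without replicate 2), HLA-F from -0.79 to 0.47, NLRC5 from -0.12 to 0.52 and TAPBP from -1.72 to 0.16, the last without replicate 1. The causes were not tested. The replicate block changed no call among the 8 genes. With 10 to 206 counts per library in TAPBP and 6 to 23 in HLA-F, depth limits what can be seen.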
